A study of Homo sapiens with 4 samples.

Results

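The nuclear-encoded genes of the respiratory chain were examined in MDA-MB-231 cells, a mesenchymal triple-negative human breast cancer line, by mRNA sequencing of bulk RNA. The cadmium group had been passaged over a long period in medium with cadmium, begun at a lower concentration and raised to 10 µM, until the cells were resistant to it. The control group was the untreated parental line, grown in medium without added cadmium. Each group held 2 libraries, named here control 2 and control 3, after their columns, and cadmium 1 and cadmium 2. The comparison asks which genes of oxidative phosphorylation differ in level between cadmium-resistant cells and their parent. Both groups derive from the same established line, so effects of cadmium and of selection during long passage cannot be told apart. The labels call the controls biological replicates, but nothing in them says that the cadmium libraries came from separate cultures. The p-values measure only the spread within these pairs of libraries, and that of the cadmium pair may be technical.

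Members were the protein-coding genes whose symbols begin with NDUFA, NDUFB, NDUFC, NDUFS, NDUFV, SDH (A to D), UQCR, COX4 to COX8, ATP5F1, ATP5M or ATP5P. This gave 97 of the 61541 genes in the count table, on 22 chromosomes. They were 7 core subunits, 30 accessory subunits and 8 assembly factors of complex I, 4 genes of complex II, 8 of complex III, 12 of complex IV, 17 of complex V, 9 tissue-restricted isoforms or retrocopies and 2 read-through genes. The 37 genes of the mitochondrial genome had a total count of 0 in the table, so the subunits they encode were not measured. Of the 97 members, 90 reached a mean of 10 counts after normalization for depth (normalized count), and all 90 were tested. The other 7 were below that level, and 4 of these (COX4I2, COX6A2, COX8C and the read-through NDUFC2-KCTD14) were listed at 0 in every library.

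The respiratory chain passes electrons from NADH (complex I) and succinate (complex II) through ubiquinone to complex III, cytochrome c and complex IV, where oxygen is reduced, and complex V makes ATP from the proton gradient that complexes I, III and IV build. Most subunits are encoded in the nucleus and imported, while a small set made on mitochondrial ribosomes has to match them. Many promoters of nuclear subunits hold sites of the factors NRF1, GABPA (of the ETS family) and YY1. MTF-1, the metal-responsive factor that turns on metallothioneins, binds metal response elements with the core letters TGCACNC or TGCGCNC, where N is any base.

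Promoter sequences are shown for 4 members to show the letters that were searched for. SDHD and ATP5PF are the members with letters of 3 of the searched motifs in the 250 bases upstream of the start. NDUFV2 and COX7B are the members with the largest positive and negative log2 fold changes among those with an unadjusted p below 0.05. Each is the 250 bases 5′ of the RefSeq transcription start on the gene's own strand, in build GRCh38.p14, with motif letters in capitals. SDHD (plus strand) is chr11:112086623-112086872, ATP5PF (minus strand) is chr21:25735055-25735304, NDUFV2 (plus strand) is chr18:9102449-9102698 and COX7B (plus strand) is chrX:77899218-77899467.
SDHD: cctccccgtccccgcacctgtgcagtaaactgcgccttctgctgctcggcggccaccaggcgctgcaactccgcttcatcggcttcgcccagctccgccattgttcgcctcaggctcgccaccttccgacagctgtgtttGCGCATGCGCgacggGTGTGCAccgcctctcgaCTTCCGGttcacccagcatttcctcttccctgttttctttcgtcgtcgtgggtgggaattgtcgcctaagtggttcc
ATP5PF: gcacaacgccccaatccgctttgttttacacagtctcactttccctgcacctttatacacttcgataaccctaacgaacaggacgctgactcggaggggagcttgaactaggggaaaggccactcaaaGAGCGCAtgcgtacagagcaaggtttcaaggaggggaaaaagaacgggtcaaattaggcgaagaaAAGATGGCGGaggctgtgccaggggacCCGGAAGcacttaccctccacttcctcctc
NDUFV2: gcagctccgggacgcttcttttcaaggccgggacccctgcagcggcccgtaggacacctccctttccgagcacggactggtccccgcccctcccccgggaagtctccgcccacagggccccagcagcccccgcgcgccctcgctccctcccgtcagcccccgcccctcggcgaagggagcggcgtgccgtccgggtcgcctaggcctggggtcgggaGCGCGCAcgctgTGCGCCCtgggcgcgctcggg
COX7B: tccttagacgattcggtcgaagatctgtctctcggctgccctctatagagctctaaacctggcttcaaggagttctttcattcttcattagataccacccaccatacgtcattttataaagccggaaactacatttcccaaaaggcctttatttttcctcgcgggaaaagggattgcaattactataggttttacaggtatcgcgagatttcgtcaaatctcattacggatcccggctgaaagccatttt

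In SDHD the capitals mark, from 5′ to 3′, the NRF1 letters, a metal response element core on the reverse strand (GTGTGCA) and the ETS letters CCGGAAG on the reverse strand (CTTCCGG). In ATP5PF they mark a reverse metal response element core (GAGCGCA), the YY1 letters and the ETS letters. In NDUFV2 they mark a reverse and a forward metal response element core, at bases -33 to -27 and -21 to -15 from the start. COX7B held none of the searched letters in this stretch. All motifs were searched on both strands over 300 bases, from 250 before to 50 after the start. The NRF1 letters end in TGCGC and can share those bases with the core TGCGCNC. RefSeq promoters matched 72 subunit and assembly genes. The NRF1 letters were in 6.94% of the 72 against 1.36% of all 27305 promoters, the ETS letters in 29.2% against 10.7%, and the YY1 letters in 9.72% against 1.28%. The metal response element cores TGCACNC or TGCGCNC were in 39 of the 72 members (54.2%) against 29.3% of all promoters. The promoters compared were not matched for base composition. These letter matches describe sequence and not binding.

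Total counts were 51934729 to 61916007 per library. The line's mesenchymal markers VIM (39062 to 51044 normalized counts), AXL and CD44 were high in every library, and the fourth, SPARC, had 51.0 to 151. Markers of other cell types differed between the controls, and EPCAM, PTPRC and PECAM1 set control 2 apart from the other 3 libraries. EPCAM, an epithelial adhesion molecule, had a normalized count of 2410.0 in control 2 and 662 to 774 in the others. PTPRC, the leukocyte marker CD45, had 1.89 in control 2, and 144, 36.8 and 42.5 in control 3, cadmium 1 and cadmium 2, and CD3E, a T cell marker, was listed at 0 throughout. The endothelial marker PECAM1 had 159.9 in control 2 and 641 to 842 in the others, with CDH5 at 2.13 to 15.8. The epithelial markers CDH1 (615) and ERBB3 (948) were highest in control 3, and the hormone receptors ESR1 and PGR were at 2.13 to 29.6. Over all genes with a mean of at least 10, log2 ratios between the controls had an SD of 1.15, against 0.471 between the cadmium libraries. The part of this control spread in the results that follow was not tested. Without control 2, the fold changes of 75 of the 90 tested members changed sign or moved by over 1.5 times. Without control 3 those of 65 did. The share of all genes that did so is not given here. The median absolute log2 ratio between the controls was 0.28 for members and 0.47 for all genes with a mean of at least 10. The medians of groups and the values of many members are therefore given without a control as well.

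No respiratory chain gene passed the test. DESeq2, fitted on all genes, called 0 of the 90 members at an adjusted p below 0.1, against 1.14% of all 19816 genes tested (225 genes, 119 or 0.601% higher and 106 or 0.535% lower in cadmium), and the lowest adjusted p of a member was 0.42 (NDUFV2). At an unadjusted DESeq2 p below 0.05 there were 4 members, against 6.92% of all genes tested. NDUFV2 and NDUFAF1 had higher values with cadmium (3.04% of all genes did so at this p), and NDUFB2 and COX7B lower ones (3.88% of all genes). edgeR's quasi-likelihood test and limma-voom called no gene of the table at an adjusted p below 0.1. At an unadjusted p below 0.05, each had 6 members, namely NDUFV2, NDUFAF1, NDUFB2, NDUFS8, NDUFA4 and ATP5MF, against 7.83% of all genes for edgeR and 7.4% for limma-voom. An exact two-sided permutation test of 2 against 2 libraries cannot go below p = 0.333 for a gene taken alone.

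Although no member was called, the values of most members were lower in the cadmium libraries. The log2 fold change, cadmium over control, was negative for 70 of 90 members (77.8%), against 52.6% of all genes tested. Its median was -0.19 over the members and -0.027 over all genes with a mean of at least 10. Both cadmium libraries lay below both controls for 32 members (35.6%), against 19.9% of all genes tested, and above both for 3 members (3.33%), against 20.3%. The 3 were NDUFV2, NDUFAF1 and NDUFA9. Among the 70 members whose mean reached 1000 normalized counts, 26 lay below both controls, against 24.9% of all genes at that level, and 0 lay above, against 17.1%. These counts and medians describe the members and were not tested. In bulk RNA, fewer cells with a transcript and less of it per cell cannot be told apart.

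**Figure D1:**
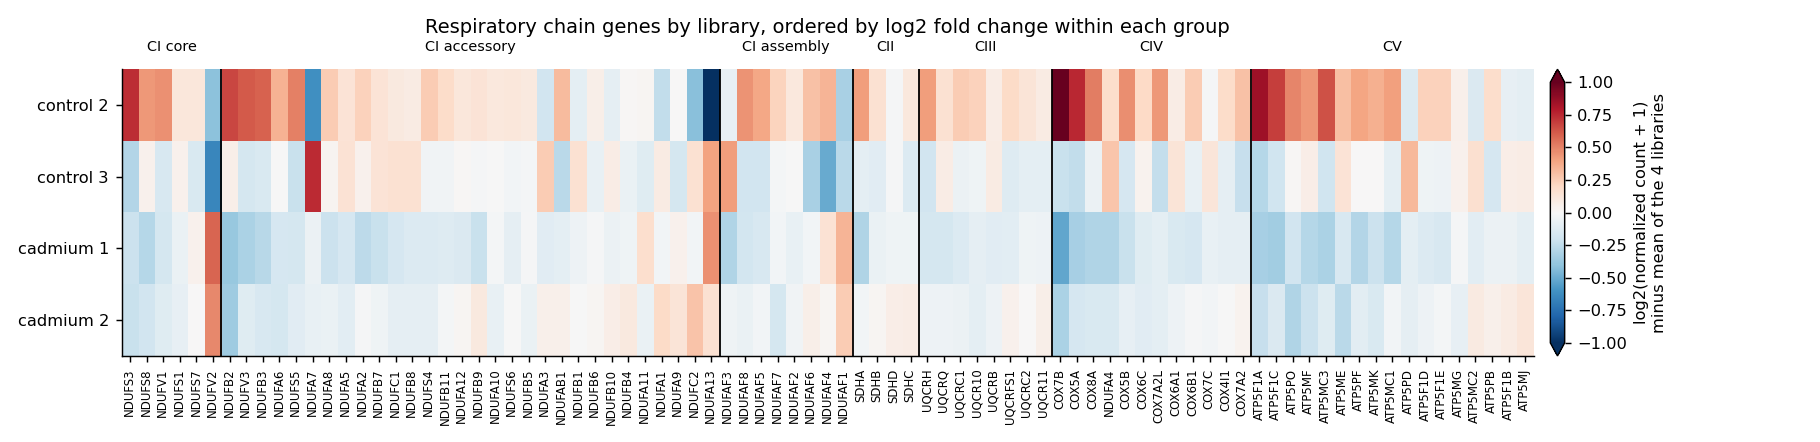
Colour gives log2(normalized count + 1) of each gene (columns) in each library (rows) minus the gene's mean over the 4 libraries, for the subunit and assembly genes reported here, grouped by complex (C) and ordered by log2 fold change; colours saturate at 1. The control 2 row is mostly red, while control 3 is closer to the cadmium rows for many genes, and NDUFV2 and NDUFAF1 are red in both cadmium libraries.

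The size of the lower values, and in some groups their sign, depended on control 2. Between the control libraries, the median log2 ratio of the 90 members was -0.23 (control 3 over control 2), with 66 of them lower in control 3. Against control 2 the member median was -0.31 for cadmium 1 and -0.20 for cadmium 2. Against control 3 it was -0.10 for cadmium 1 and 0.0093 for cadmium 2. The median difference between the controls was therefore larger than the difference between control 3 and either cadmium library. Without control 2 the median log2 fold change of the members was -0.048, and 60 of the 90 were negative. Without control 3 the median was -0.27, and 71 were negative. The count of members whose cadmium values lay below the controls became 40 of 90 without control 2, against 39.4% of all genes, and 24 lay above, against 40.4%. Without control 3 it was 70, against 43% of all genes, and 15 lay above, against 43.3%. The DESeq2 fit without control 2 called 5 members, against 14.8% of all genes tested in it, and the fit without control 3 called 38, against 31.2%. The 5 were NDUFA4, NDUFAF3 and ATP5PD, with lower values in cadmium, and NDUFAF1 and NDUFAF4, with higher ones. In these fits the spread came from the cadmium pair alone, which was the tighter of the pairs.

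**Figure D2:**
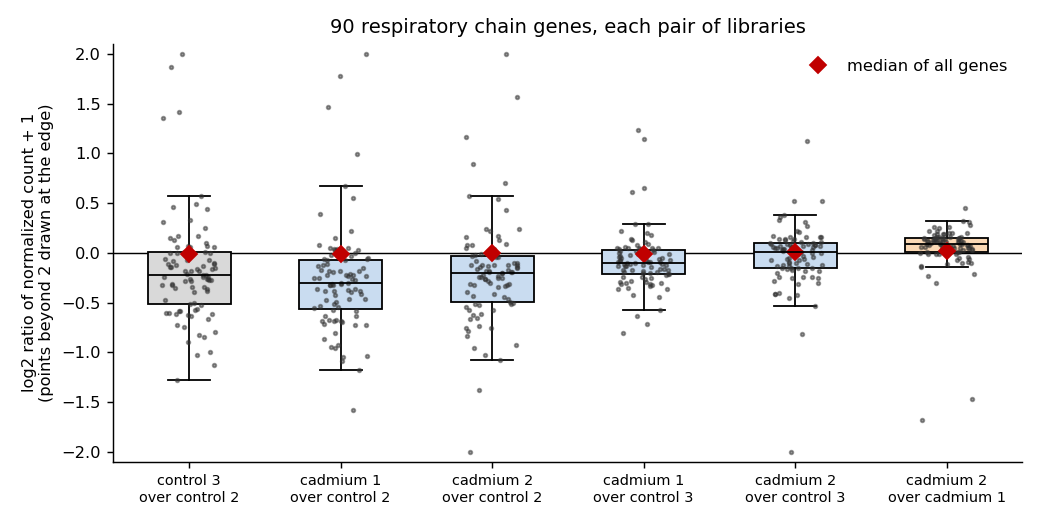
Each box holds the log2 ratios of normalized count + 1 for 90 respiratory chain genes between a pair of libraries, with points for genes, whiskers at 1.5 times the interquartile range and red diamonds for the median of all genes. The members' median lies at -0.23 between the controls (grey) and at 0.0093 for cadmium 2 over control 3.

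Members together took 0.762% of all counts in control 2, and 0.648%, 0.605% and 0.640% in control 3, cadmium 1 and cadmium 2. Control 2 again stood above the rest, and control 3 was nearly level with cadmium 2. Complex V held the largest share, at 0.276% in control 2, and 0.234%, 0.216% and 0.233% in control 3, cadmium 1 and cadmium 2. Complex II held 0.0203%, 0.0187%, 0.0190% and 0.0201% in the same order, so its share in the cadmium libraries lay within that of the controls.

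The core subunits of complex I carry the flavin and iron-sulfur clusters that lead electrons from NADH to ubiquinone. Their log2 fold changes had a median of -0.16, from -0.53 to 1.07. Without control 2 the median was 0.035, and only 2 of the 7 were negative in place of 4. NDUFV2 (ENSG00000178127, chr18:9102630-9134345), which holds an iron-sulfur cluster near the NADH site, had normalized counts of 80.4 and 68.1 in the controls and 161 and 150.1 in the cadmium libraries. Its cadmium values were both above the controls, at a mean of 156 ± 7.89 against 74.2 ± 8.75 (SD, n = 2 each), and its log2 fold change was 1.07 (SE 0.43) and a DESeq2 adjusted p of 0.42. Its fold change was between 0.94 and 1.19 whichever library was left out. Its counts were few, and 90% of the canonical NDUFV2 transcript is shared with a long non-coding gene on the same strand (ENSG00000265257), which had a count of 0 in every library.

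NDUFS8, an iron-sulfur subunit on the path to ubiquinone, had normalized counts of 8846 and 6748 in the controls and 5355 and 5719 with cadmium, and a log2 fold change of -0.49 (SE 0.28, DESeq2 adjusted p = 0.793). Both cadmium values lay below both controls, and the fold change was -0.29 without control 2. NDUFS3, a core subunit without a cluster, had 5049 in control 2, and 2470.0, 2612 and 2599.6 in control 3, cadmium 1 and cadmium 2. Its log2 fold change of -0.53 (SE 0.39) therefore came from control 2 alone and was 0.076 without it. NDUFV1, which binds NADH and the flavin, had the same shape, with 12203 in control 2 and 7843 to 8172 in the other libraries.

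The 30 accessory subunits surround that core, with a median log2 fold change of -0.12. Leaving out control 2 gave -0.068, leaving out control 3 gave -0.20, and leaving out cadmium 2 gave -0.21. Of the 30, 22 were negative with all libraries and 24 without control 2. Both cadmium values lay below the control range for 11 of them and above it for 1, where 19.9% and 20.3% of all genes did so. NDUFB2 (ENSG00000090266, chr7:140690777-140722790), a subunit of the membrane arm, had normalized counts of 2227 and 1459.9 in the controls and 1075 and 1096 in the cadmium libraries. Its mean was 1085 ± 14.9 with cadmium against 1844 ± 543 (SD, n = 2 each), which is -0.76 in log2 fold change (SE 0.32, DESeq2 adjusted p = 0.466), and -0.43 without control 2. The cadmium values were tight and below both controls, which themselves differed by more than control 3 did from cadmium. NDUFB3, another membrane arm subunit, had 2954 in control 2 and 1619 to 1761 in the other libraries, and its log2 fold change of -0.48 was -0.064 without control 2. NDUFC2, a membrane arm subunit, had 731 and 1086 in the controls and 960.4 and 1192 with cadmium (log2 fold change 0.24, SE 0.34, and -0.015 without control 2), with overlapping groups. NDUFA13, also known as GRIM-19, was lowest in control 2 (70.0), with 188 in control 3 and 195 and 158 with cadmium, so that its fold change of 0.45 became -0.094 without control 2.

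Assembly factors of the NDUFAF series build complex I without staying in it. NDUFAF1 (ENSG00000137806, chr15:41387218-41409403), a chaperone of the membrane arm assembly intermediate, had normalized counts of 656 and 683 in the controls and 1043 and 978 in the cadmium libraries. Both groups were tight and did not overlap, at 1011 ± 45.7 with cadmium against 669 ± 19 (SD, n = 2 each). The log2 fold change was 0.59 (SE 0.27), with a DESeq2 adjusted p of 0.573 and values of 0.54 to 0.64 when any library was left out. Of 8 NDUFAF genes, 6 had negative fold changes (5 with upper-quartile factors), with a median of -0.16. Without control 2, 3 of the 8 were negative and the median was 0.081. NDUFAF4, on chromosome 6, had 1028 and 572 in the controls, and its cadmium values of 901 and 823 lay between them, with a log2 fold change of 0.11 that was 0.59 without control 2 and -0.27 without control 3. NDUFAF3 had 2116 and 2979 in the controls and 1816 and 2170.1 with cadmium, a log2 fold change of -0.35 (SE 0.31) with overlapping groups, and -0.58 without control 2.

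Complex II, succinate dehydrogenase, which also serves the TCA cycle, had log2 fold changes with a median of -0.014, or 0.046 with upper-quartile factors. With a gene length trend removed it was -0.076. The median was 0.053 without control 2 and -0.14 without control 3. In no member did both cadmium values lie below both controls, or both above. SDHD, a membrane anchor, had normalized counts of 3309 and 3314 in the controls and 3245 and 3490.1 with cadmium, and a log2 fold change of 0.024 (SE 0.25). SDHB, the iron-sulfur subunit, had 4870.2 and 4052 in the controls and 4185 and 4423 with cadmium, a log2 fold change of -0.052 (SE 0.26) that was 0.085 without control 2. SDHA, the flavoprotein, had 1253 and 876 against 758 and 919, and its groups overlapped (log2 fold change -0.34, SE 0.33, and -0.065 without control 2). Standard errors in this group were 0.25 to 0.33 on the log2 scale, so differences of that size were not detectable here.

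Complex III had a median log2 fold change of -0.18 over 8 genes, all between -0.26 and 0.011. Without control 2 the median was 0.019, and 4 of the 8 were negative in place of 7. UQCRH, the hinge protein that meets cytochrome c1, had the lowest, with normalized counts of 8176 in control 2, and 5383, 5442 and 5915 in control 3, cadmium 1 and cadmium 2. It was higher in control 2 only, and its fold change was 0.075 without that library. UQCRQ, a small membrane subunit, had 4339 and 4127 in the controls and 3462 and 3783 with cadmium, so that the groups did not overlap, at a log2 fold change of -0.22 (SE 0.25, DESeq2 adjusted p = 1).

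All 12 complex IV genes had negative log2 fold changes, with a median of -0.24, and 6 of the 12 lay below both controls in both cadmium libraries, where 19.9% of all genes tested did so. All 12 stayed negative with TMM or upper-quartile factors, and without control 2 the negative ones were 8 of 12 and the median was -0.089. COX7B (ENSG00000131174, chrX:77899440-77907376), a small subunit of cytochrome c oxidase, had normalized counts of 15704 in control 2, and 6474, 5259 and 6040.4 in control 3, cadmium 1 and cadmium 2. Its log2 fold change of -0.97 (SE 0.43, DESeq2 adjusted p = 0.536) was the lowest of any subunit gene, and it was -0.20 without control 2. The controls differed by a log2 ratio of -1.28, more than the groups did. COX5A, a subunit on the matrix side, had the same shape, with 10947 in control 2 and 5165 to 5769.8 in the other libraries.

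NDUFA4 (ENSG00000189043, chr7:10931943-10940153), once placed in complex I and now counted with complex IV, had lower values with cadmium against level controls. It had normalized counts of 5166 and 5525 in the controls and 3708 and 4110.2 in the cadmium libraries. The means were 3909 ± 284 with cadmium and 5346 ± 253 without (SD, n = 2 each), which is -0.45 in log2 fold change (SE 0.25) with a DESeq2 adjusted p of 0.784. It was -0.50 without control 2 and -0.41 without control 3. COX8A, a small membrane subunit, had 6426 and 4337 in the controls and 3667 and 4054 with cadmium (log2 fold change -0.48, SE 0.31). It was -0.17 without control 2 and -0.75 without control 3. COX4I1, the general isoform of the regulatory subunit IV, had 11543 and 9559 against 9534 and 10133, with overlapping groups.

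Complex V had a median log2 fold change of -0.33 over 17 genes, with 15 negative (13 with upper-quartile factors, 16 without control 2). Both cadmium libraries lay below both controls for 7 of the 17, where 19.9% of all genes tested did so. With all 4 libraries the complex V median was the lowest of the complexes. Without control 2 it was -0.058, and the complex IV median of -0.089 was lower. The catalytic head showed the range. ATP5F1B, the catalytic beta subunit, had normalized counts of 39318 and 43696 in the controls and 39981 and 44139.7 with cadmium, and a log2 fold change of 0.019 (SE 0.25). ATP5F1A, the alpha subunit that pairs with it in equal number, had 33444 in control 2, and 15298, 14755 and 15872 in control 3, cadmium 1 and cadmium 2. Its log2 fold change was -0.67 (SE 0.40, DESeq2 adjusted p = 0.846), and -0.0005 without control 2. The alpha subunit was thus high in control 2 only, while the beta subunit was level in all 4 libraries.

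Further members of complex V divided in the same way. ATP5F1C, the gamma subunit of the rotor shaft, had a log2 fold change of -0.56 (SE 0.36), and ATP5MC3, a gene for the c-ring, had -0.49 (SE 0.35). Both came from control 2, being -0.042 and -0.021 without it. ATP5MC1 and ATP5MC2 encode the same mature c subunit as ATP5MC3. ATP5MC2 had 6318 and 7823 in the controls and 6514 and 7454 with cadmium, and its groups overlapped (log2 fold change -0.018, SE 0.27, and -0.17 without control 2). ATP5MC1 had 4398 and 3093 against 2725 and 3255, also overlapping. ATP5MF, ATP5PO, ATP5ME, ATP5MK and ATP5PF, of the stator and membrane part, lay below both controls in both cadmium libraries. ATP5PO, the oligomycin-sensitivity protein, had 1338 and 961 against 834 and 775 (log2 fold change -0.52, SE 0.31). It was -0.26 without control 2 and -0.75 without control 3. ATP5PF, whose promoter holds ETS and YY1 letters, had 3225 and 2468 against 2004 and 2283 (log2 fold change -0.41, SE 0.29, and -0.21 without control 2).

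**Figure D3:**
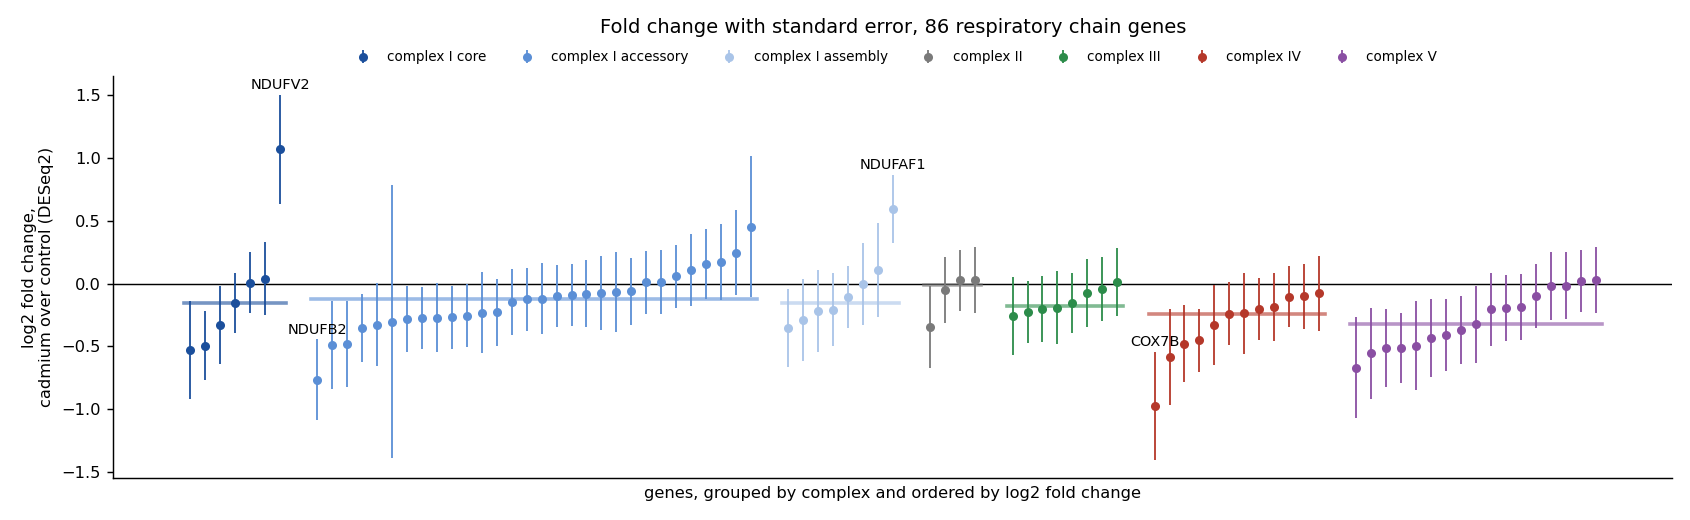
Points are DESeq2 log2 fold changes, cadmium over control, with standard errors (bars) for the 86 subunit and assembly genes, coloured by group, and thick lines are group medians. Every complex IV gene lies below 0 (8 of 12 without control 2), the complex II median is -0.014, and NDUFV2 (1.07) and NDUFAF1 (0.59) stand above the rest.

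**Figure D4:**
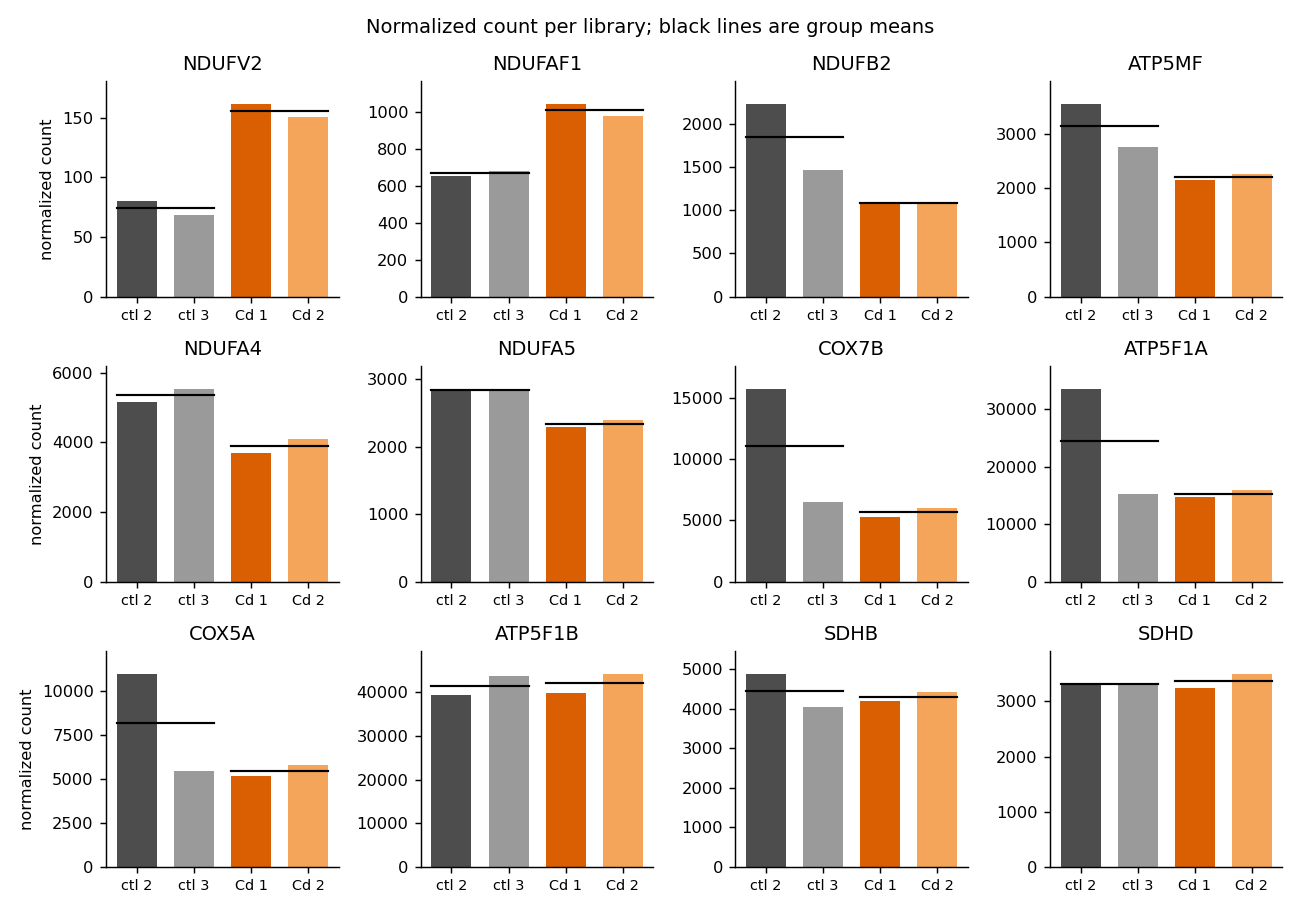
Bars give the normalized count in each library (ctl, control; Cd, cadmium) for 12 genes and black lines the mean of each group of 2. NDUFA4 and NDUFA5 have level controls and lower cadmium values, COX7B, ATP5F1A and COX5A are high in control 2 only, and ATP5F1B, SDHB and SDHD differ little between the groups.

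Chromosome 7 carried 5 members, and all 4 that were measured lay below both controls in both cadmium libraries. Of all genes tested, 19.9% did so. Chromosome 7 was not alone in this, since 3 of 3 measured members on chromosome 22 did so. On chromosomes 4 and 5 it was 2 of 2 and 5 of 7, and on chromosomes 1 and 3 it was 0 of 7 and 0 of 4. The median log2 fold change of the 4 measured chromosome 7 members was -0.48. The 4 are NDUFB2 and NDUFA4 (above), ATP5MF and NDUFA5. ATP5MF (chr7:99448475-99466186) had normalized counts of 3559 and 2767 in the controls and 2163 and 2267 with cadmium, and a log2 fold change of -0.51 (SE 0.28, DESeq2 adjusted p = 0.76) that was -0.32 without control 2. NDUFA5 (chr7:123536997-123557904) had 2829 and 2849.6 in the controls and 2290.0 and 2394 with cadmium, a log2 fold change of -0.28 (SE 0.25, DESeq2 adjusted p = 1), and it was -0.28 without either control. The median of the chromosome 7 members against control 3 alone was -0.40 for cadmium 1 and -0.35 for cadmium 2, where the median of all members was -0.10 and 0.0093.

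Genes beside the chromosome 7 members had lower values too. The 40 nearest genes with a mean of at least 100 had median log2 fold changes of -0.45 around NDUFB2, -0.35 around NDUFA4, -0.23 around ATP5MF and -0.10 around NDUFA5. Without control 2 these were -0.16, -0.33, -0.22 and -0.20 in the same order. MRPS33, of the mitochondrial ribosome, and SSBP1, which binds mitochondrial single-stranded DNA, lie close to NDUFB2 and had log2 fold changes of -0.50 (SE 0.33) and -0.47 (SE 0.28). They were -0.16 and -0.25 without control 2. On chromosome 11 the genes around NDUFS8 and around NDUFV1 had a median of -0.47 each, near the value of NDUFS8 itself. Around NDUFS8 the median was -0.16 without control 2. After subtraction of the neighbours' median, the chromosome 7 members had a median of -0.23 and all 90 members one of -0.10. Chromosome 6 carried NDUFAF4 and COX7A2, with log2 fold changes of 0.11 (SE 0.37) and -0.078 (SE 0.30), and COX7A2 had 0.21 without control 2. The part of the neighbouring regions in these values was not tested.

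Levels of different genes were compared per length, as normalized count per kilobase of the canonical transcript scaled to a total of 1000000 over all genes in each library. On this scale ATP5F1B was highest at a mean of 1012, followed by NDUFS5 at 641, COX6B1 at 612, COX4I1 at 567 and COX7C at 527. NDUFAF5 was the lowest, at 6.95, of the genes that share few bases with others. The order describes mRNA and depends on the transcript chosen, since NDUFA12 had a level of 332 by its canonical transcript and 40.6 by the summed exon length of the count table.

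Of the 86 subunit and assembly genes, 8 shared more than 50% of their canonical transcript with exons of another gene in the table (9.30%), against 4.72% of protein-coding genes with a mean of at least 10, a level that all 86 reached. Reads that fall in more than 1 gene are dropped under the default setting of the counting program, which the command in the file header left as it was, so only the unshared bases of such a gene can give counts. The 8 were NDUFS7, NDUFV2, NDUFA7, NDUFA11, NDUFA13, NDUFB8, SDHA and ATP5PO. Their level per length had a median of 16.8 (1.07 to 56.9), against 184 (6.95 to 1012) for the 60 genes that shared at most 10%. NDUFA7, which shares exons with a longer gene on the same strand (ENSG00000167774), had normalized counts of only 8.52, 23.4, 12.9 and 12.8 in control 2, control 3, cadmium 1 and cadmium 2. NDUFB8 likewise shares exons with ENSG00000255339 and had 313 and 329 in the controls against 269 and 277 with cadmium. The counts and fold changes of these 8 genes therefore rest on part of the transcript.

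**Figure D5:**
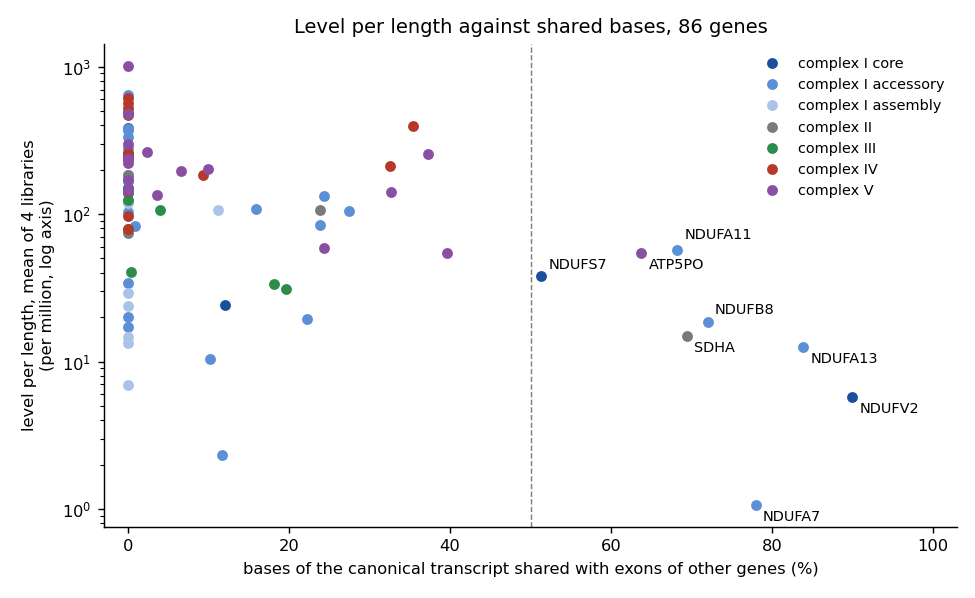
Each point is 1 of 86 genes, with the share of its canonical transcript that lies in exons of other genes (%) on the x axis and its level per length (mean of 4 libraries, log axis) on the y axis; the dashed line marks 50%. The 8 named genes beyond the line have levels of 1.07 to 56.9.

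NDUFV2, SDHA and COX6A1 have pseudogene copies that took many counts of their own. NDUFV2P1, on chromosome 19, had raw counts of 239 and 161 in the controls and 117 and 142 with cadmium, so it had lower values in the libraries in which NDUFV2 had higher ones (NDUFV2P1 log2 fold change -0.63, DESeq2 adjusted p = 0.901). Its counts were 281% and 252% of those of NDUFV2 in the controls and 72.2% and 93.4% in the cadmium libraries. Reads of NDUFV2 and its copy can be confused, so the difference at NDUFV2 is uncertain. The copies of SDHA held 139% to 315% of the SDHA count, and those of COX6A1 held 18.6% to 19.3% of the COX6A1 count. In all, 195 pseudogene rows of 52 members held 0.834% to 1.25% of the members' counts, and 125 of them were at 0.

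Isoforms of other tissues were near or at 0. COX4I2, COX6A2 and COX8C were listed at 0, while their general partners COX4I1, COX6A1 and COX8A had levels per length of 567, 213 and 395. COX7A1, the heart and muscle form, had normalized counts of 3.78, 15.9, 5.97 and 4.94 in control 2, control 3, cadmium 1 and cadmium 2, below the mean of 10. COX6B2, a testis form, had 5.68, 23.4, 21.9 and 18.8 in the same order. NDUFA4L2, a hypoxia-inducible relative of NDUFA4, had 2.84, 31.9, 71.7 and 21.7, so that control 3 lay between the cadmium libraries (log2 fold change 1.43, SE 1.15, DESeq2 adjusted p = 0.983, and a fold change of 0.55 without control 2). UQCRHL, a retrocopy of UQCRH, had 689, 459, 432 and 590.4, highest in control 2 as UQCRH was. A count of 0 allows up to 3 counted fragments, or 6 counts where both mates were counted, for counting error only.

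Among other genes of the pathway, 0 of 7 further subunits and electron carriers, 0 of 12 complex I assembly factors under other names, 0 of 40 assembly factors of complexes II to V, 0 of 18 regulators of mitochondrial gene expression, 0 of 18 TCA cycle enzymes and 0 of 79 mitochondrial ribosomal proteins were called in either direction by DESeq2 (adjusted p below 0.1), and none by edgeR or limma-voom. Of all genes tested, DESeq2 called 1.14%. At an unadjusted DESeq2 p below 0.05, only IDH2 of the TCA cycle enzymes was found in these lists, against 6.92% of all genes tested. IDH2, the mitochondrial NADP-dependent isocitrate dehydrogenase, had normalized counts of 3009.9 and 1557 in the controls and 1089 and 1291 in the cadmium libraries (log2 fold change -0.94, SE 0.39, DESeq2 adjusted p = 0.425), and -0.39 without control 2. Median log2 fold changes were -0.24 for the further subunits, 0.10 for the other complex I assembly factors, -0.081 for the assembly factors of complexes II to V, 0.0027 for the regulators, -0.073 for the TCA cycle and -0.087 for the mitochondrial ribosome. Without control 2 they were -0.15, 0.041, 0.026, 0.0087, 0.054 and 0.077 in the same order, so the last 2 lists and the assembly factors of complexes II to V turned positive. Without control 3 the other complex I assembly factors had -0.030 and the regulators -0.13. The DESeq2 fit without control 3, in which 31.2% of all genes were called, called 6, 1, 14, 6, 11 and 29 genes of these lists, and the fit without control 2 (14.8%) called 1, 1, 1, 2, 0 and 4.

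Of 4 measured enzymes that feed electrons to ubiquinone from outside the chain, 1 was called, against 1.14% of all genes tested. CHDH, choline dehydrogenase, had normalized counts of 435 in control 2, and 60.6, 33.8 and 41.5 in control 3, cadmium 1 and cadmium 2, a log2 fold change of -2.72 (SE 0.80, DESeq2 adjusted p = 0.0755). It was -0.69 and not called without control 2, and neither edgeR nor limma-voom called it. ATP5IF1, the inhibitor of complex V hydrolysis, had 7307 and 4476 in the controls and 3981 and 4143 with cadmium, a log2 fold change of -0.54 (SE 0.33) that was -0.14 without control 2 and -0.86 without control 3. COX15, which makes the heme of complex IV, had 1597 and 1418 against 1076 and 1126 (log2 fold change -0.45, SE 0.26). MRPS10, of the small mitochondrial ribosomal subunit, had 5787 and 6405 against 8268 and 8182 (log2 fold change 0.43, SE 0.24, DESeq2 adjusted p = 0.803). For these last 3 genes the groups did not overlap. Of all genes tested, 19.9% had cadmium values below both controls and 20.3% above.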

How the data were processed

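The data are the authors' deposited table of raw read counts per gene for 4 libraries. Per the study's methods, RNA was isolated with DNase treatment, and reads were trimmed, aligned to hg38 with HISAT2 and counted with featureCounts 2.0.1 on Ensembl 105 genes. The labels name an mRNA library kit. The command in the file header sets no counting option, so the defaults applied, that is, without strand and without reads that map to or overlap more than 1 gene. Of low counts (1 to 20), 70.6% to 71.5% were even, since the mates of a pair were counted separately. Reads carried no molecular identifiers.

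Symbols came from GENCODE v44, matching 61369 of 61541 genes. Normalized counts are counts divided by DESeq2 size factors. The main test was DESeq2 1.42.0 (Wald test, Benjamini-Hochberg adjusted p below 0.1) on all genes, after the study's own choice of tool. Alternatives were edgeR 4.0.16 and limma 3.58.1, TMM and upper-quartile factors, other filters, a gene length trend, halved counts and leaving out each library. The alternatives on groups that do not overlap, on shared bases and on neighbouring genes, and the use of canonical transcript lengths, were chosen after seeing the data. On simulated counts for these libraries, the DESeq2 script recovered 36.5% of 200 genes changed 2-fold and 94% of those changed 4-fold among 33455 genes, and edgeR recovered 0% and 88%. Unchanged genes called were 113 and 112 for DESeq2 and 6 and 30 for edgeR, and 59 and 10 where no gene was changed. Each simulated gene had the same spread in both groups, whereas in the data the controls spread more than the cadmium pair. The simulated rates may therefore not hold for the data.

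Members and lists were chosen with earlier results of these data known. Genes named in the text were, in each group, those with the lowest p in each direction and the highest level per length, members on chromosomes 6 and 7, isoform pairs and the 5 with the largest spread between controls; others were chosen after their values were seen. Protein sequences were not used here. Some genes are not reported here.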

Additional observations from a re-analysis of the deposited data

How the results depend on the processing

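Depth was similar in all libraries, and each group held 2 libraries. For all genes, edgeR and limma-voom called 0 against 225 by DESeq2, where edgeR had 1506 genes and limma-voom 1423 at an unadjusted p below 0.05. Upper-quartile factors moved the DESeq2 calls to 152 higher and 88 lower (63.3% higher, against 52.9%), and moved the median of all genes from -0.027 to 0.033 and that of the members from -0.19 to -0.13. They also gave 7 members above both controls in place of 3, against 24.4% of all genes, and 24 below both in place of 32, against 16%. Removal of a gene length trend gave a member median of -0.23, with 79 of 90 negative, and a median of -0.082 for all genes. Complex II then had 4 of 4 genes negative. Members had a median exon length of 2548 bases, against 4179 for tested genes. No member was called under any alternative with all 4 libraries. Leaving out 1 library at a time gave 14 to 6189 calls over all genes and 0 to 38 among members, a member median of -0.27 to -0.048, 33 to 70 members below the controls and 6 to 24 above. The share of all genes below or above the controls also changed with the library left out. Without cadmium 1, 33 of 90 members (36.7%) lay below, against 26.9% of all genes, and 9 above, against 28.4%. Without cadmium 2, 53 members (58.9%) lay below, against 29.5%, and 6 above, against 29.4%. Without a control, the shares of all genes were 39.4% to 43% below and 40.4% to 43.3% above. The highest counts of calls came without control 3, and the member median nearest 0 came without control 2, where 24 of 90 members changed the sign of their fold change. No paired analysis was possible because the headings of the controls (2 and 3) do not match the labels' replicate numbers (1 and 2).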
